A study of Mus musculus with 6 samples.

Results

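The B cell receptor signalosome is the set of receptor chains, kinases, adaptors, lipid kinases, phosphatases and calcium channels that carry the signal of the antigen receptor into the cell. A fixed set of 38 genes was followed in RNA of mouse splenic B cells on 6 single-colour Illumina bead arrays. Each gene was represented by its brightest probe, and a probe was used if it exceeded the 40th percentile of the array on 3 or more of the 6 arrays. This held for 35 of the 38 genes, out of 10304 genes tested in all. No probe carried the symbol Lyn, Bank1 or Itpr1, and these genes were not analysed here. The control group was 3 arrays of normal splenic B cells and the TRAF3KO group 3 arrays of premalignant splenic B cells that lacked TRAF3 (TRAF3-/-). The strain, age, sex and treatment of the mice, the driver of the deletion and whether each array held a separate animal are not stated in the labels. The p-values therefore reflect the spread between these arrays only, part of which may be technical. No probe carried the symbol Traf3, so the deletion itself was not checked.

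When antigen binds the receptor, Src family kinases phosphorylate the tails of its CD79A and CD79B chains, and SYK docks there and phosphorylates the adaptor BLNK. BTK and phospholipase C then assemble on BLNK, inositol trisphosphate opens calcium stores and NFAT enters the nucleus, while diacylglycerol signals lead through BCL10 and MALT1 to canonical NF-kB. TRAF3 is an adaptor that restrains the non-canonical NF-kB pathway and the survival of B cells, and the comparison asks which of these signalling genes differed in premalignant cells without it.

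Most signalosome transcripts lay close to their control level in TRAF3KO cells. Of 35 tested genes, 2 rose (Grap and Bcl10), 1 fell (Stim1) and 32 were not called by limma at a Benjamini-Hochberg adjusted p under 0.05. The share called was 8.57%, against 4.44% of all 10304 tested genes (2.3% higher and 2.14% lower). The members were chosen with earlier results of these data known, so shares set against the background describe the set only. The members were bright, and bright probes are measured more precisely: 26 members had a mean log2 intensity of at least 10, and of all 3671 tested genes as bright as that 7.79% were called, against 11.5% (3 of 26) of the members. The median difference (TRAF3KO minus control, on the log2 scale) was -0.06 over the 35 genes and 0.0042 over all tested genes. The median size of a difference, whatever its sign, was 0.11 in the members and 0.21 over all tested genes. Among genes with a mean of at least 10 it was 0.099 and 0.11.

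**Figure D1:**
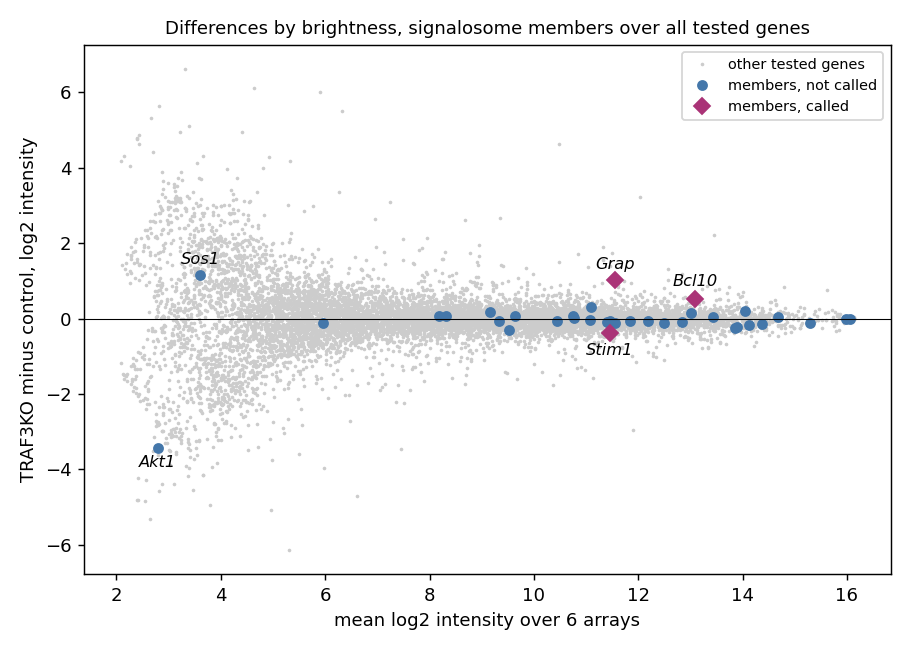
Difference between the groups (TRAF3KO minus control, log2 intensity, vertical axis) against mean log2 intensity over the 6 arrays (horizontal axis), with 10304 tested genes in grey and the 35 members in colour. Grap, Bcl10 and Stim1 (diamonds) passed the test, and most of the other members lie near 0, while Sos1 and Akt1 sit among the scattered dim genes at the left.

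The arrays held B cell RNA with some RNA of other cells, and these values bear on every difference given here. Of 6 B cell markers, one of which (Blk) is also a member, 0 were called by limma and 1 (Cd22) had an unadjusted p under 0.05; Ms4a1 (CD20) lay between 11.59 and 11.84 on the 6 arrays. The summed intensity of 12 monocyte and macrophage markers ran from 1897 to 5264 in control and from 1308 to 2115 in TRAF3KO, with 2 of 8 tested called lower (C1qc and Lyz2) and Vsig4 at the floor on all arrays. The sum of 11 T cell markers ran from 389.5 to 526 in control and from 282 to 573 in TRAF3KO. Of 8 tested T cell markers 0 were called by limma and 2 (Thy1 and Cd3d, both lower in TRAF3KO on average) had an unadjusted p under 0.05, and Cd8a and Lat were at the floor on every array. The 9 erythroid markers summed to between 79585 and 84064 in control and between 66489 and 80395 in TRAF3KO, mostly from Hba-a1 near the top of the scale, with 1 of 9 called (Car2, lower). In bulk samples fewer cells of a type and less RNA per cell cannot be told apart, and the part of these other cells in the results was not tested. Of the other lists, 9 dendritic cell markers summed lower in TRAF3KO (16889 to 18691, against 24514 to 27444), mostly through Cst3 (called lower), with Itgax at the floor. Zbtb46 was called higher, with log2 values of 0, 0 and 0 in control and 6.35, 6.51 and 7.02 in TRAF3KO. Its probe passed the filter through the TRAF3KO group only, which favours a call in this direction. The 6 plasma cell markers summed higher in TRAF3KO (11458 to 12584, against 9980.2 to 10590.1), with Xbp1 called higher and Sdc1 lower. The 9 neutrophil markers summed to 175 to 360 and 106 to 155 in control and TRAF3KO, the 5 platelet markers to 204 to 276 and 124 to 192, and the 7 natural killer cell markers to 2518 to 3952 and 2756 to 3334, and 0 genes of these 3 lists were called by limma (0 of 4, 1 of 2 and 1 of 4 tested had an unadjusted p under 0.05). The floor of the table is a log2 value of 0, where 31.3% to 31.4% of the probes of each array lay.

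The signalling chains of the receptor differed little between the groups, and neither was called by limma. Cd79a, which encodes one of the chains, measured 15.96, 16.00 and 16.00 on the control arrays and 16.08, 15.89 and 15.97 on the TRAF3KO arrays (log2 intensity, as for all levels below). The values overlapped, and the difference of -0.01 ± 0.06 (log2 difference and SE, the form used below) had a 95% interval of -0.14 to 0.12, or 0.908-fold to 1.09-fold. Cd79b, its partner, measured 16.00, 16.07 and 16.12 in control and 16.05, 16.12 and 16.03 in TRAF3KO. Its difference was -0.0022 ± 0.06, and a second probe gave -0.02. Both genes lie close to the highest value of the table, 16.15, where 70 of 25697 probes had a mean at or above that of Cd79a, and whether their signals are compressed at the top of the scale was not tested. Cd81, a tetraspanin of the coreceptor complex, measured 14.00, 13.81 and 14.03 in control and 14.07, 14.21 and 14.18 in TRAF3KO. Its groups did not overlap, but the difference of 0.20 ± 0.07 was not called (limma, adjusted p = 0.18).

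**Figure D2:**
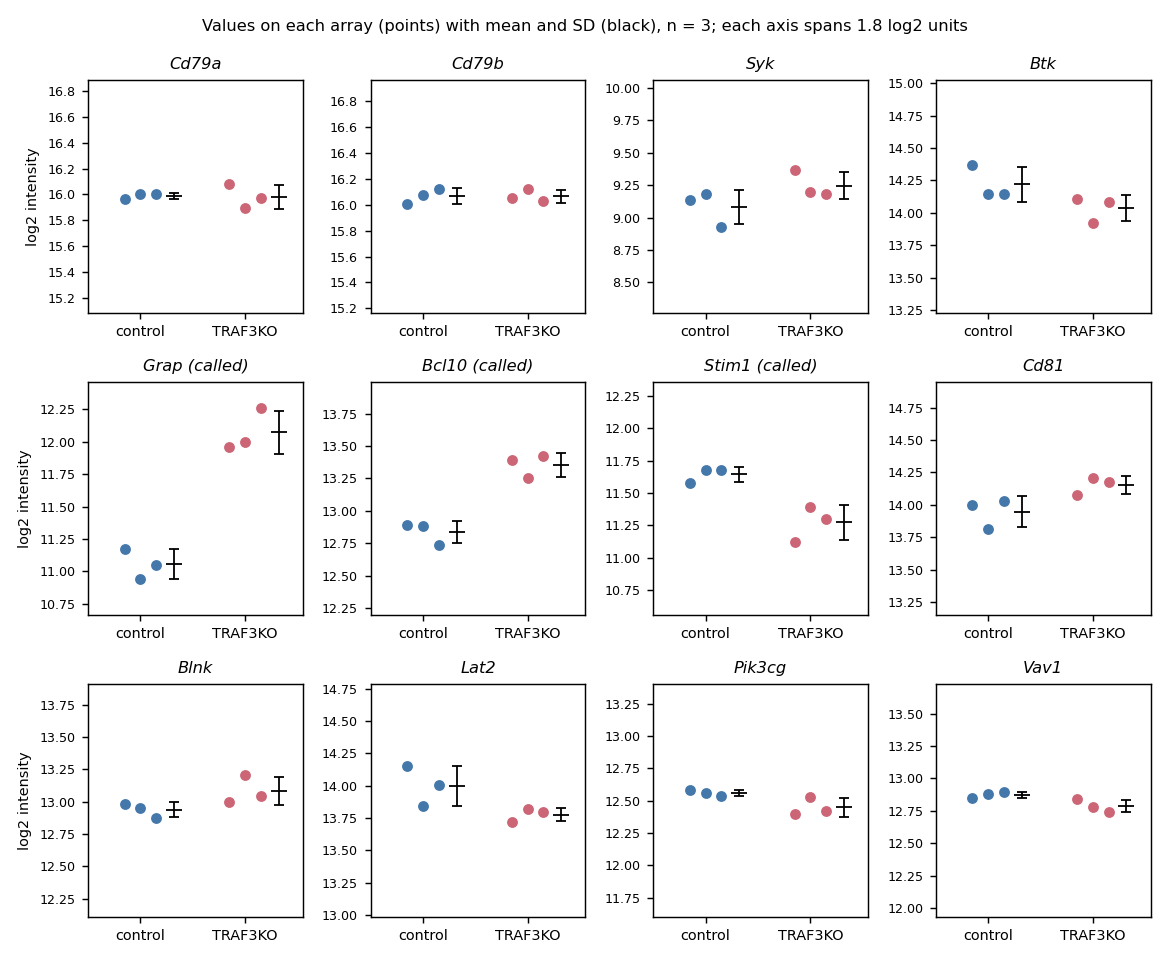
Log2 intensity on each control array (blue) and each TRAF3KO array (red) for 12 members, with the mean and SD of each group in black (n = 3) and every axis spanning the same range of 1.8 log2 units. Grap, Bcl10 and Stim1 do not overlap between the groups, and neither do the uncalled Btk, Cd81, Blnk, Lat2, Pik3cg and Vav1. Cd79a, Cd79b and Syk overlap.

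None of the 4 tested kinases next to the receptor was called by limma, though 2 of them (Btk and Fyn) had an unadjusted p under 0.05. Syk, the kinase that docks on the phosphorylated receptor tails, measured 9.14, 9.18 and 8.93 in control and 9.36, 9.20 and 9.18 in TRAF3KO. The groups met at 9.18, and the difference was 0.17 ± 0.13 (interval -0.12 to 0.45). Btk, the Tec family kinase that activates phospholipase C, measured 14.37, 14.14 and 14.14 in control and 14.11, 13.92 and 14.08 in TRAF3KO. All 3 TRAF3KO values lay under the lowest control value by a small margin, and the difference of -0.18 ± 0.08 was not called (limma, adjusted p = 0.29). Fyn, a Src family kinase shared with T cells, measured 9.57, 9.59 and 9.90 in control and 9.21, 9.58 and 9.34 in TRAF3KO, a difference of -0.31 ± 0.14 with 1 overlapping array. Among the T cell markers, Thy1 and Cd3d, both with an unadjusted p under 0.05, were lower on average in TRAF3KO (2.81 against 5.94 and 2.14 against 5.55) with overlapping groups and were not called, while Cd3e and Cd3g differed by 0.09 and 0.03. Cd28 was higher on average in TRAF3KO (5.40 against 3.71), also with overlapping groups. The median difference of the 8 tested T cell markers was 0.04. The part of T cells in the value of Fyn was not tested. Blk, the Src family kinase characteristic of B cells, differed by -0.11 ± 0.09, with 3 probes from -0.11 to 0.06.

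The largest called change was in an adaptor. Grap, a relative of GRB2 that joins phosphorylated receptors to Ras signalling, measured 11.18, 10.94 and 11.05 in control and 11.96, 12.00 and 12.26 in TRAF3KO. Every TRAF3KO array stood at least 0.78 above every control array. Grap rose by 1.02 ± 0.10 (limma, adjusted p = 0.00033), 2.02-fold with a 95% interval of 1.73 to 2.36. It was called without any 1 of the 6 arrays, with differences from 0.92 to 1.08. Grb2 itself, which brings the exchange factor SOS1 to phosphorylated receptors, measured 8.29 ± 0.31 in control and 8.35 ± 0.17 in TRAF3KO (mean and SD, n = 3). Its interval, -0.36 to 0.48, lies wholly below that of Grap, 0.79 to 1.24. The difference between the responses of both genes was not tested.

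Of the other adaptors, 4 were measured well above the floor and none of these was called by limma. Blnk, the platform on which BTK and phospholipase C meet, measured 12.99, 12.95 and 12.87 in control and 13.00, 13.21 and 13.04 in TRAF3KO. The groups parted by 0.016, and the 2 probes of Blnk gave 0.15 and 0.28. Lat2, a membrane adaptor also made by myeloid and mast cells, measured 14.15, 13.84 and 14.00 in control and 13.72, 13.82 and 13.79 in TRAF3KO. Its 2 probes gave -0.22 and -0.26, with an adjusted p of 0.19 by limma for the brighter one. Dapp1, an adaptor that binds the lipid products of PI3-kinase, differed by -0.07 ± 0.15. Sos1, the Ras exchange factor, was listed at 0.00, 4.80 and 4.30 in control and at 5.80, 4.18 and 2.58 in TRAF3KO. It lay above the 40th percentile (on average a log2 value of 3.96) on 2 arrays of each group, so its difference of 1.15 ± 1.60 says little about direction, and without control replicate 1 it was -0.36.

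The PI3-kinase arm had 0 of 5 genes called by limma and 0 with an unadjusted p under 0.05. Pik3cd, the p110-delta catalytic subunit of B cells, differed by -0.06 ± 0.11, and Pik3r1, the p85-alpha regulatory subunit, by -0.11 ± 0.10. Pik3cg, the p110-gamma subunit, measured 12.58, 12.56 and 12.53 in control and 12.39, 12.53 and 12.42 in TRAF3KO. The groups were separate by 0.0039, and the difference was -0.11 ± 0.07 (interval -0.26 to 0.04). Pik3ap1, the adaptor BCAP that links the receptor to PI3-kinase, differed by 0.06 ± 0.16. Akt1, a kinase that acts downstream of PI3-kinase, was dim: it measured 3.97, 5.10 and 4.46 in control and 0.00, 0.00 and 3.22 in TRAF3KO. Its probe was kept through the 3 control arrays alone, which favours this direction, and all TRAF3KO arrays lay under the 40th percentile. The difference was not called (limma, adjusted p = 0.44), its interval of -7.82 to 0.94 includes no change, and no direction is drawn from it.

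The 3 VAV genes, exchange factors for Rac that shape the cytoskeleton after receptor binding, were not called by limma, and 0 had an unadjusted p under 0.05. Vav1, the blood cell form, measured 12.85, 12.88 and 12.90 in control and 12.84, 12.78 and 12.74 in TRAF3KO. The gap between the groups was 0.0065, and the difference of -0.09 ± 0.06 had an interval of -0.23 to 0.06. Vav2 differed by 0.07 ± 0.17 and Vav3 by -0.07 ± 0.10, both with overlapping groups.

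In the arm that leads to canonical NF-kB, Bcl10 rose and Malt1 was not called. Bcl10, a filament-forming signalling protein, measured 12.89, 12.89 and 12.74 in control and 13.39, 13.25 and 13.42 in TRAF3KO. The lowest TRAF3KO value lay 0.36 above the highest control value. Bcl10 rose by 0.52 ± 0.07 (limma, adjusted p = 0.003), 1.43-fold with an interval of 1.28 to 1.6, and was called without any 1 of the 6 arrays (0.47 to 0.57). Malt1, the paracaspase bound to BCL10, measured 10.49, 11.16 and 11.19 in control and 11.31, 11.29 and 11.19 in TRAF3KO. Control replicate 1 stood 0.67 below the lowest of the other 5 arrays, and the TRAF3KO values met the upper control values. The difference of 0.31 ± 0.16 was not called (adjusted p = 0.38) and was 0.09 without control replicate 1.

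Among the phosphatases and brakes, 0 of 5 genes were called by limma, 1 (Dok3) had an unadjusted p under 0.05, and all 5 intervals lay within 1.5-fold of no change. Dok3, an adaptor that recruits the lipid phosphatase SHIP1 and dampens calcium signals, measured 14.07, 13.83 and 14.04 in control and 13.84, 13.67 and 13.72 in TRAF3KO. The highest TRAF3KO value passed the lowest control value by 0.015, and the difference was -0.24 ± 0.08 (limma, adjusted p = 0.15). Ptpn6, which encodes the phosphatase SHP-1, differed by 0.04 ± 0.08, and Ptprc, which encodes CD45, by 0.06 ± 0.11. Inpp5d, which encodes SHIP1, differed by -0.09 ± 0.10. Csk, which phosphorylates the inhibitory tyrosine of Src family kinases, differed by -0.15 ± 0.08 (interval -0.32 to 0.02). Dok3 and Lat2 are also made in myeloid cells. Of 8 tested monocyte and macrophage markers 2 were called lower as given above, and the median difference was -2.03. Adgre1 was nearly level (mean of 10.01 in control and 10.06 in TRAF3KO). Fcgr1 and Itgam, at the floor on several arrays, were higher on average in TRAF3KO. The part of myeloid cells in the values of Dok3 and Lat2 was not tested.

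In the calcium and NFAT group 1 of 7 tested genes fell. Stim1, the calcium sensor of the endoplasmic reticulum, measured 11.58, 11.68 and 11.68 in control and 11.13, 11.40 and 11.30 in TRAF3KO. The groups were 0.18 apart, and Stim1 fell by 0.37 ± 0.09, 1.29-fold lower with an interval of 1.13 to 1.48 (limma, adjusted p = 0.045). The call was close to the threshold and was lost when any 1 array other than TRAF3KO replicate 2 was left out (5 of 6 cases, highest adjusted p = 0.14, with differences from -0.43 to -0.30). Orai1, the plasma membrane channel that STIM1 opens, differed by -0.03 ± 0.08 (interval -0.22 to 0.15). Of the inositol trisphosphate receptors, the channels that release stored calcium, Itpr2 differed by -0.06 ± 0.12 and Itpr3 by -0.06 ± 0.10. Dimmer probes of Itpr2 gave 0.50, with groups that did not overlap, and 1.07, and neither was called by limma. Of the NFAT factors, Nfatc1 differed by 0.05 ± 0.06, Nfatc3 by 0.02 ± 0.10 and the dimmer Nfatc2 by -0.11 ± 0.40.

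**Figure D3:**
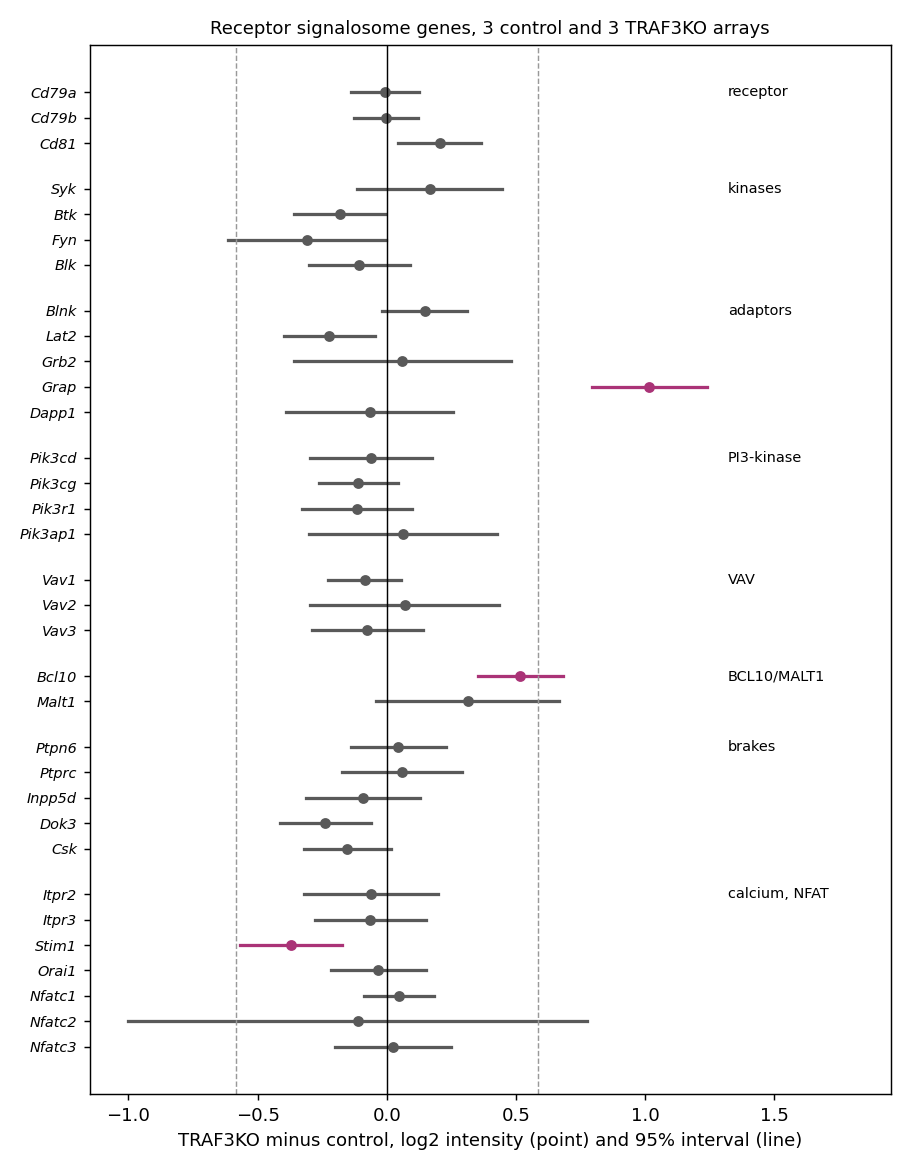
Difference (TRAF3KO minus control, log2 intensity, points) and 95% interval from limma (lines) for 33 members grouped by role, with dashed lines at 1.5-fold in either direction. Grap and Bcl10 lie to the right of 0 and Stim1 to the left (coloured, called), and most other intervals stay between the dashed lines; Sos1 and Akt1, with intervals from -2.37 to 4.68 and from -7.82 to 0.94, are left out.

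The intervals show how far the array signals of the uncalled genes could have moved. For Cd79a and Cd79b, near the top of the scale, compression was not tested, so their intervals may not bound the change in transcript. For 28 of the 35 members (80%) the 95% interval lay wholly within 1.5-fold of no change, Stim1 among them, against 46.2% of all tested genes. Among genes with a mean of at least 10 the shares were 88.5% in the members and 88.8% in all tested genes, nearly equal. The 7 wider intervals were those of Fyn, Grap, Sos1, Akt1, Bcl10, Malt1 and Nfatc2. For Malt1 the interval reached 1.59-fold higher and for Fyn 1.53-fold lower. Groups that did not overlap were found in 10 of 35 members (28.6%; 4 higher, 6 lower, Akt1 among the lower), against 22.4% of all tested genes, and among genes with a mean of at least 10 in 34.6% and 30.1%. These shares lie near the background. An unadjusted p under 0.05 was reached by 8 members (22.9%), against 16.9% of all tested genes, and among genes with a mean of at least 10 the shares were 26.9% and 26.3%.

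Several members were read by more than 1 probe, which gives a second measure of the same gene on the same arrays. Whether the probes of a gene read the same transcripts was not checked. Among 14 genes with 2 or more kept probes, all probes of 6 (Blnk, Cd79b, Dapp1, Lat2, Ptprc and Vav3) gave differences of one sign and those of 8 did not, and 0 of their 37 probes were called by limma (4 had an unadjusted p under 0.05). The 6 probes of Nfatc1 ranged from -0.44 to 0.14. The widest disagreement was in dim probes: those of Vav2 ranged from -2.92 to 0.46 and those of Nfatc2 from -0.11 to 2.81. Grap, Bcl10 and Stim1 were each read by 1 probe, so their changes have no second probe behind them.

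**Figure D4:**
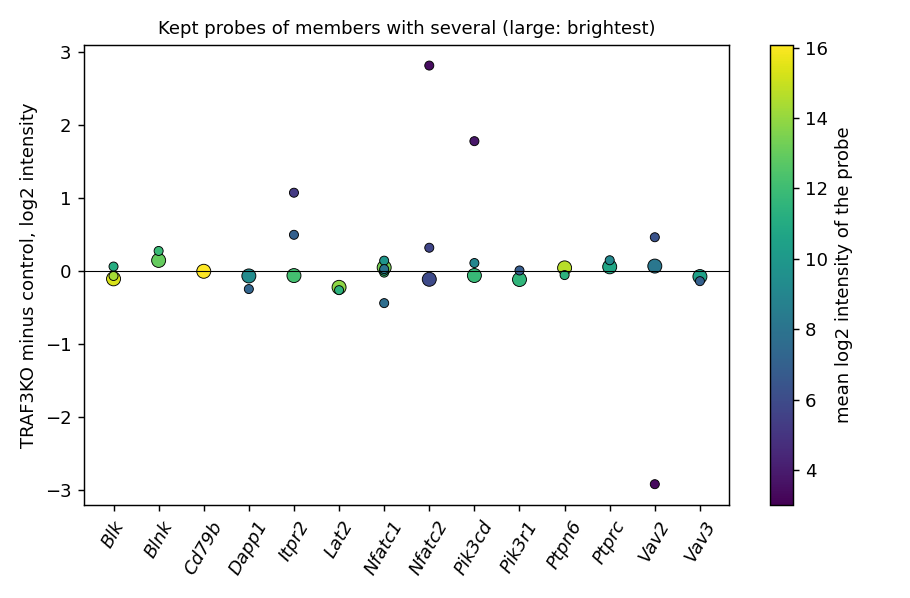
Difference of each kept probe (TRAF3KO minus control, log2 intensity) for the 14 members with several kept probes, coloured by the mean log2 intensity of the probe, with the brightest probe of each gene drawn large. Bright probes lie near 0, and the probes beyond 1 in either direction, in Itpr2, Nfatc2, Pik3cd and Vav2, are dim.

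The start regions of Bcl10 and Stim1, 2 of the 3 called genes, are shown because the transcript levels of these members changed, and that of Grap is not shown. RefSeq promoters on GRCm38.p6, from 250 bases before to 50 bases after the gene start, were given for 30 of the 38 members, among them Bcl10 and Stim1. That of Bcl10 is chr3:145924012-145924311 and that of Stim1 chr7:102267569-102267868, both on the plus strand, 5′ to 3′, with capitals at a match to any motif searched.
Bcl10: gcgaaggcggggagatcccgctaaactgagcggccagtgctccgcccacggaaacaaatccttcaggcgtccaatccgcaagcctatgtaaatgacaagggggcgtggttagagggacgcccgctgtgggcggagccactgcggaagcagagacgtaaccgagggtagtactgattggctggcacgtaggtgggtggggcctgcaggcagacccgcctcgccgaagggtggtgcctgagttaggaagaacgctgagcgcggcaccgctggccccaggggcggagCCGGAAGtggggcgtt
Stim1: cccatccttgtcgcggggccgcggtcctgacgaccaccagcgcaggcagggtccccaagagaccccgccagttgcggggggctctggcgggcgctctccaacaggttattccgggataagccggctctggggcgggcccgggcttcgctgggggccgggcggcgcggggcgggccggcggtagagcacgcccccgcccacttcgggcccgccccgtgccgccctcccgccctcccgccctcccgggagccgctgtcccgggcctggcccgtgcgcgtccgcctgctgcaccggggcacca
Both are rich in G and C (65% and 78.7%, against a median of 52.7% over all promoters). On both strands, an NF-kB-type motif (GGGNNTTCC) matched 4 of the 30 member promoters (Nfatc2, Nfatc3, Sos1 and Vav2, none of them called) and 5.72% of 27025 promoters. A longer NF-kB form of 10 letters, searched first, matched 0 of the 30 and 1.62% of all promoters, so the count depends on the form chosen. An ETS core (CCGGAAG) matched that of Bcl10, 34 bases after its start and shown in capitals, and 9.12% of all promoters. The octamer ATGCAAAT, which POU2F factors bind, matched the windows of Blnk, Itpr3 and Orai1, whose transcripts were not called, and 1.75% of all promoters. A match describes letters in a window, not a site in use.

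Genes of the same pathway outside the set changed about as often in each direction. Of 70 such genes 49 were tested, and 3 rose and 3 fell (12.2% called, against 4.44% of all tested genes), with a median difference of 0.0012. Of all tested genes with a mean log2 intensity of at least 10, 7.79% were called. The share among pathway genes as bright as that was not computed, and the list was chosen with earlier results of these data known. Rasgrp3, a diacylglycerol-activated Ras exchange factor, was higher by 1.17 ± 0.08, and the complement receptor gene Cr2 by 0.92 ± 0.18. Nfat5, an NFAT relative that responds to osmotic stress rather than calcium, measured 12.46, 12.66 and 12.63 in control and 13.06, 13.01 and 13.29 in TRAF3KO, a rise of 0.54 ± 0.09 (limma, adjusted p = 0.0068). Nfatc1, Nfatc2 and Nfatc3, the calcium-regulated relatives among the members, were not called. Sh3bp2, an adaptor that binds SYK and VAV proteins, measured 13.03, 12.77 and 12.89 in control and 12.32, 12.10 and 12.21 in TRAF3KO, a difference of -0.69 ± 0.09 (limma, adjusted p = 0.0014). Dgka, a kinase that consumes diacylglycerol, was lower (-0.37 ± 0.08), as was the inhibitory Fc receptor gene Fcgr2b (-0.49 ± 0.07). Nfat5, Dgka and Fcgr2b had 3 kept probes each, and only the brightest is given here. The groups did not overlap for any of the 6 called genes, which were picked by their call. Groups that did not overlap were found in 21 of the 49 tested pathway genes (42.9%), against 22.4% of all tested genes. Among all tested genes with a mean of at least 10 the share was 30.1%.

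Of the pathway genes that were not called, the 6 with the smallest p were Lilrb4a, Nck2, Dgkz, Prkcb, Map2k1 and Ptpn22. The inhibitory receptor gene Lilrb4a differed by 2.11 ± 0.56 at a low level, and the adaptor gene Nck2 by 0.43 ± 0.11 (limma, adjusted p = 0.068 and 0.069). Dgkz, another diacylglycerol kinase, differed by -0.30 ± 0.08. Prkcb, a protein kinase C of B cells, differed by -0.18 ± 0.06, the MAP kinase kinase gene Map2k1 by 0.75 ± 0.23 and the phosphatase gene Ptpn22 by 0.28 ± 0.09. Plcg2, the phospholipase that BTK activates, differed by -0.10 ± 0.06 (adjusted p = 0.47).

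The 3 calls among the members depend on the variance model and on the filter. Without the trend of variance on brightness, without the filter on dim probes and without variance moderation, 0 members were called, though the differences themselves did not change. Grap then had an adjusted p of 0.062, 0.052 and 0.088 (limma), Bcl10 of 0.12, 0.075 and 0.11, and Stim1 of 0.24, 0.19 and 0.22. The control arrays 1 and 3 and TRAF3KO array 1 carried the Y-linked Eif2s3y transcript and the other 3 arrays did not, so sex was unevenly spread over the groups. With sex inferred from this gene and Xist as a term, the same 3 members were called, with differences of 1.02 for Grap, 0.51 for Bcl10 and -0.42 for Stim1. The count of all genes called fell from 457 to 319, and that of the other pathway genes from 6 to 5.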

How the data were processed

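RNA of 6 samples (3 control, 3 TRAF3KO) was labelled with biotin and read on Illumina bead arrays, per the labels' protocols. The submitters' processing notes list BeadStudio 3.2.3 but not what it was used for. The authors deposited log2 intensities of 25697 probes. Their sorted values differ between arrays by at most 0.14, so the arrays had been brought to nearly one distribution; the methods of background correction and normalisation were not found in the labels. Arrays have no sequencing depth, and their number limits the precision.

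The platform annotation gave 1 gene symbol for 23141 probes, several for 0 and none for 2556. Values were used as deposited. Probes over the 40th percentile on 3 or more arrays were kept (15657). R 4.3.3 and limma 3.58.1 were used (lmFit and trended eBayes on group alone, two-sided). The p-values were adjusted by Benjamini-Hochberg over these probes. A gene was called under 0.05 through its brightest probe.

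The members and lists were chosen with earlier results of these data known. Every member was named; array values were given for called members, members with separate groups, the 5 largest remaining differences, Cd79a, Cd79b, Syk and Btk; of other pathway genes, the called and the 6 uncalled with the smallest p were named, and Plcg2 was added after its value was seen. Over all kept probes, samples with the same replicate number did not deviate together (correlations of 0.030 to 0.044), so the numbers were not treated as pairs. Over the members alone the correlations were -0.68, -0.26 and -0.60 for replicates 1, 2 and 3. Data of the 15657 probes were simulated with independent normal noise, and changes were planted in 200 of 10304 genes. The fit recovered 24%, 48%, 72% and 70% of log2 changes of 0.5, 1, 2 and 4. For genes with a mean of 10 or more it recovered 50%, 100%, 100% and 100% (of 18, 14, 20 and 14 planted). Of 108 called probes 1 was false. The simulated noise was not correlated between probes or arrays, so these rates may differ from those of the real arrays. Alternatives were other normalisations, filters, offsets, variance models, array weights, blocks, probe means and leaving out each array.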

Additional observations from a re-analysis of the deposited data

How the results depend on the processing

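Grap and Bcl10 were called under 16 and Stim1 under 11 of the 19 alternatives, and the other 32 tested members under none. Quantile normalisation and median centring left the same 3 members called, but the deposited arrays already had nearly one distribution. These 2 alternatives could therefore hardly change a call. With no filter on dim probes, no trend and no variance moderation, the counts called were 0, 0 and 0 members, 2, 1 and 0 other pathway genes, and 114, 65 and 37 of all genes; without any 1 array they ran from 2 to 3, 4 to 6 and 227 to 382, and the count of all genes was 227, 287, 282 and 278 without control replicate 1, control replicate 3, TRAF3KO replicate 1 and TRAF3KO replicate 2. The cause was not tested. With the replicate block the counts were 3, 7 and 468, and Stim1 kept its call (limma, adjusted p = 0.037). The block changed no call among the members. With the mean of kept probes the counts were 3, 5 and 386, with 2 of the pathway genes higher and 3 lower.

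Of the tested members 15 changed sign under some alternative. None of these was called, and apart from Sos1 their differences were at most 0.11 in size. With array weights Cd79b was at 0.0020. With inferred sex as a term Cd79a was at 0.014 and Pik3cd at 0.032. With the mean of kept probes, which gives dim probes equal weight, Pik3cd was at 0.61, Vav2 at -0.79, Ptpn6 at -0.0051, Itpr2 at 0.50, Nfatc1 at -0.039 and Nfatc2 at 1.01. Without any 1 array the differences ran from -0.057 to 0.037 for Cd79a, -0.034 to 0.026 for Cd79b, -0.11 to 0.19 for Grb2, -0.36 to 2.04 for Sos1, -0.18 to 0.061 for Dapp1, -0.17 to 0.015 for Pik3cd, -0.10 to 0.20 for Pik3ap1, -0.037 to 0.14 for Ptpn6, -0.019 to 0.14 for Ptprc, -0.21 to 0.062 for Itpr2, -0.082 to 0.00055 for Orai1, -0.33 to 0.12 for Nfatc2 and -0.039 to 0.095 for Nfatc3. Akt1 and Sos1 are limited by their dimness: with an offset of 50 their differences were -0.46 and 0.18. With a filter at the 60th percentile Akt1, Sos1 and Nfatc2 left the test.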
